A study of Mus musculus with 6 samples.

Results

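The semaphorins, their plexin receptors and the neuropilin co-receptors were followed in the polysomal mRNAs of hippocampal astrocytes from Cx43FL and Cx43KO mice. The genes were chosen by symbol alone (Sema, Plxn and Nrp symbols of the mouse annotation), which took 31 of the 22086 genes in the counts, namely 20 semaphorins, 9 plexins and 2 neuropilins. mRNAs were recovered by TRAP, in which tagged ribosomes are immunoprecipitated, from the hippocampus of 6 weeks-old mice, with 3 libraries per genotype. Both genotypes carried the Aldh1l1-driven transgene for the ribosomal protein RPL10a fused to GFP and the floxed Cx43 alleles (Cx43 fl/fl), and Cx43KO mice carried Gfap Cre in addition. Cx43 (Gja1) is a gap junction protein of astrocytes. The Cre was driven by the human GFAP promoter, which is also active in radial glia, the embryonic precursors of neurons and glia, so that recombination need not be restricted to astrocytes. Whole hippocampi were used for each library. The number of animals behind a library is not given in the sources used here, so that p-values measure the spread between these libraries.

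Semaphorins are guidance proteins that repel or attract growing axons and migrating cells, and in the adult hippocampus they act on synapses, spines and vessels. Class 3 semaphorins are secreted and generally bind a neuropilin, which has no signalling domain of its own and presents them to a plexin of the A family. Classes 4 to 6 span the membrane and class 7 is anchored by a lipid, and these mostly bind plexins directly: class 4 the B plexins, class 6 the A plexins, and Sema7a the plexin Plxnc1 or integrins holding Itgb1. Plexins carry a GTPase-activating domain in the cell and signal through small GTPases and the cytoskeleton.

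Total counts over transcripts ranged from 33423491 to 77030398 per library. CPM below are TMM-scaled counts per M reads counted on tested genes. The smallest detectable amount was taken as 3 counts, which covers counting error only. It corresponded to 0.0864 to 0.203 counts per M over all genes, before TMM scaling. Gja1, the targeted gene, had 92.0, 91.7 and 82.3 CPM in Cx43FL, against 87.2, 98.4 and 95.1 CPM in Cx43KO, and was thus not lower in the libraries labelled Cx43KO. The counts do not show whether the deleted part of the gene was covered. Genotypes are named below as the libraries were labelled, and every direction rests on these labels. Cx43KO replicate 1 stood apart, at 123.4 on principal component 1 of log2 CPM (41.0% of the variance), with the other libraries between -50.7 and -0.42. Results are therefore also given without it. No preparation batch is stated in the sources used here. Per the paper, sequencing used 2 flow cell lanes with multiplexing by 3, but which libraries shared a lane is not stated. The libraries of the 2 genotypes were numbered in separate series. If their preparation or lane differed, that cannot be told apart from genotype.

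The promoters of 3 of the 4 genes with the lowest p-values in the genotype comparison are shown first, since the results below return to these genes. Each sequence is the 250 bases before the RefSeq start site on GRCm38.p6, written 5′ to 3′ on the coding strand (plus for each gene). Capitals mark matches to the GC box letters GGGCGG on either strand, some of which overlap. Plxna2 (chr1:194619579-194619828) held 2 such matches, Sema5a (chr15:32244563-32244812) 5 and Sema3e (chr5:14025026-14025275) 2.
Plxna2: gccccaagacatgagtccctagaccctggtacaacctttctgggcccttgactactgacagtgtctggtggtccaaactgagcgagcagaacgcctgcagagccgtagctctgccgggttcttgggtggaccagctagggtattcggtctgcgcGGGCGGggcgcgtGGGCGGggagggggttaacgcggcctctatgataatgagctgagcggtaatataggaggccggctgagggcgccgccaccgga
Sema5a: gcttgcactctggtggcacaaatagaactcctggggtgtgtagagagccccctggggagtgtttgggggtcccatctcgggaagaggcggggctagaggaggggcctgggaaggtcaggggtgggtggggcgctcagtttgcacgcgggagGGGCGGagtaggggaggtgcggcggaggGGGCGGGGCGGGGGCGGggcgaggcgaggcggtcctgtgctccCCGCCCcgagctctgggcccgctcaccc
Sema3e: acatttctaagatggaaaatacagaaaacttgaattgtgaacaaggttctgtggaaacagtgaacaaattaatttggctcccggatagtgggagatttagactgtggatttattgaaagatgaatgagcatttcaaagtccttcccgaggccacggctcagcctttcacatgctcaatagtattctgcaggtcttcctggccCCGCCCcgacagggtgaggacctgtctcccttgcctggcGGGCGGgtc
The promoters of Plxna2 and Sema5a were rich in G and C (62.8% and 72.0%), with 18 and 17 CpG dinucleotides, against 48.0% and 7 in Sema3e. The letters CCAAT and TATAAA were not found in the window of any of these promoters. RefSeq entries were matched for 26 of the 31 genes, with 37 promoters, and not for Plxna4, Plxna1, Sema6a, Sema3b and Sema3f. GGGCGG was found in 73.0% of the 37 promoters, against 56.7% of 13567 promoters of tested genes and 32.7% of all 32851 promoters. CCAAT was found in 18.9%, 35.1% and 33.8% of the same sets, and TATAAA in 0%, 6.46% and 12.4%. These matches are letters only, and no test was made on them.

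Sema6d, a membrane semaphorin that binds Plxna1, was the most abundant of the 31 transcripts per length in Cx43FL, at 18.5 ± 0.608 CPM per kb (SD, n = 3 libraries). It was followed by the receptor Plxnb1 (8.95 ± 3.97 CPM per kb) and by Nrp1 (5.79 ± 2.46 CPM per kb). Among the ligands Sema4a (5.29 ± 1.08), Sema4b (4.03 ± 2.53), Sema4f (3.94 ± 1.96) and Sema5a (3.88 ± 1.17 CPM per kb) came next. Among the receptors Plxnc1 (3.23 ± 0.565) and Plxnb2 (3.03 ± 1.497 CPM per kb) came next. In all, 20 of the 31 genes had a mean above 1 CPM per kb in Cx43FL. The Cx43FL libraries of Sema6d lay above all those of Plxnb1, but for 28 of the 30 pairs of neighbours in this order the ranges overlapped, so that most of the order is within the spread. In Cx43KO Sema6d was again first (23.2 ± 5.95 CPM per kb), Sema5a second (11.04 ± 8.21), and Plxna4 stood at rank 6, against rank 15 in Cx43FL (7.89 ± 4.73 and 2.03 ± 0.991 CPM per kb). The least abundant in Cx43FL were Sema3g, Sema3f, Sema4c and Sema6c, which did not pass edgeR's filter on low counts. Sema3g had 0, 0 and 2 counts in Cx43FL, against 13, 0 and 0 in Cx43KO, and Sema3f had 0, 0 and 4 against 0, 42 and 40. Sema4c had 0, 8 and 9 against 10, 9 and 49 counts, and Sema6c had 5, 8 and 8 against 4, 3 and 17 counts. Counts given here and below are not scaled for depth, and Cx43KO replicates 2 and 3 were the deepest libraries. The 17 counts of Sema6c in Cx43KO replicate 3 were 0.525 CPM, against 0.329, 0.531 and 0.521 CPM in Cx43FL.

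**Figure D1:**
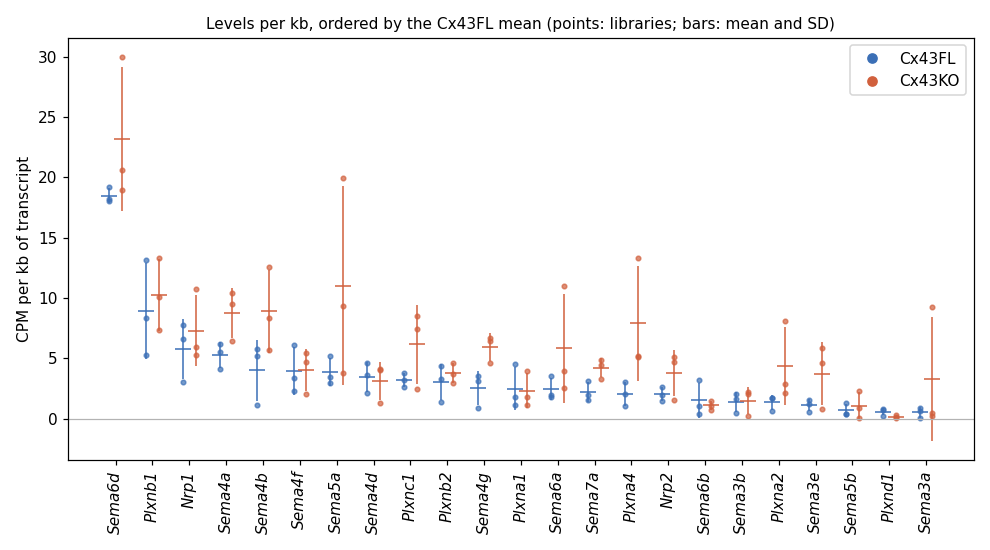
Level of the 23 most abundant genes in CPM per kb of transcript (vertical axis, linear), in order of their Cx43FL mean, with 1 point per library and bars for the mean and SD of 3 libraries. Sema6d lies above the rest in Cx43FL at 18.5 CPM per kb, while most neighbours overlap.

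No member of the family was called between genotypes. A call required a p below 0.05 in edgeR's quasi-likelihood test after Benjamini-Hochberg adjustment, and more than 50 normalized counts on average in the higher genotype. This called 0 of the 27 members that passed the filter, the background over all 13545 genes tested being 0.00738% (1 gene). The lowest adjusted p was 0.490. At an unadjusted p below 0.05, 4 members were higher in Cx43KO (Plxna4, Plxna2, Sema5a and Sema3e) and 0 were lower. These 4 of 27 are 14.8%, against 5.66% of all tested genes higher and 2.67% lower. DESeq2 with its normal prior called 1 member, Plxna4, with a background of 0.827% called higher. For 6 members (22.2%) all Cx43KO libraries lay above those of Cx43FL, against 8.08% of all tested genes, and for 0 members every Cx43KO library lay below, against 7.45%. These 6 were Plxna2, Plxna4, Sema3d, Sema4a, Sema4g and Sema7a.

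The log2 fold change (Cx43KO over Cx43FL) was positive for 22 members and negative for 5, with a median of 0.73, against a median of 0.07 over all tested genes, 54.4% of which were positive. The semaphorins had a median of 0.83 (16 tested, 14 positive), the neuropilins 0.62 (2 tested, 2 positive) and the plexins 0.31 (9 tested, 6 positive). The study listed a semaphorin-plexin pathway of axon guidance among those changed in these same libraries, so that this direction is not independent evidence. The medians rested on wide errors, the median standard error of a member being 0.61. Without Cx43KO replicate 1 only Plxna4 had an unadjusted p below 0.05 with edgeR, that is 1 of 28 members tested or 3.57%, below the 5.17% of all tested genes that were then higher. Without Cx43KO replicate 2 it was 7 of 27 members (background 6.57%), namely the 4 above with Nrp2, Plxnc1 and Sema3a. Without Cx43FL replicate 1 it was 2 of 29 (background 3.38%), and without Cx43FL replicate 2 also 2 of 29 (background 3.7%). Without Cx43FL replicate 3 it was 5 of 29 (17.2%, background 4.76%). Without Cx43KO replicate 3 it was 5 of 27 (18.5%, background 8.72%). At this threshold the higher share of members than of all genes thus did not hold without Cx43KO replicate 1. With 2 libraries left in Cx43KO more genes separate by construction. Without Cx43KO replicate 1, 8 of 28 members lay above (background 13.8%) and 2 below (Plxna3 and Plxnd1, background 12.3%). The 8 include Sema3f, which passed the filter there only through Cx43KO, so that its separation does not count as a result. Without Cx43KO replicate 2, 11 of 27 lay above (background 14.1%).

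**Figure D2:**
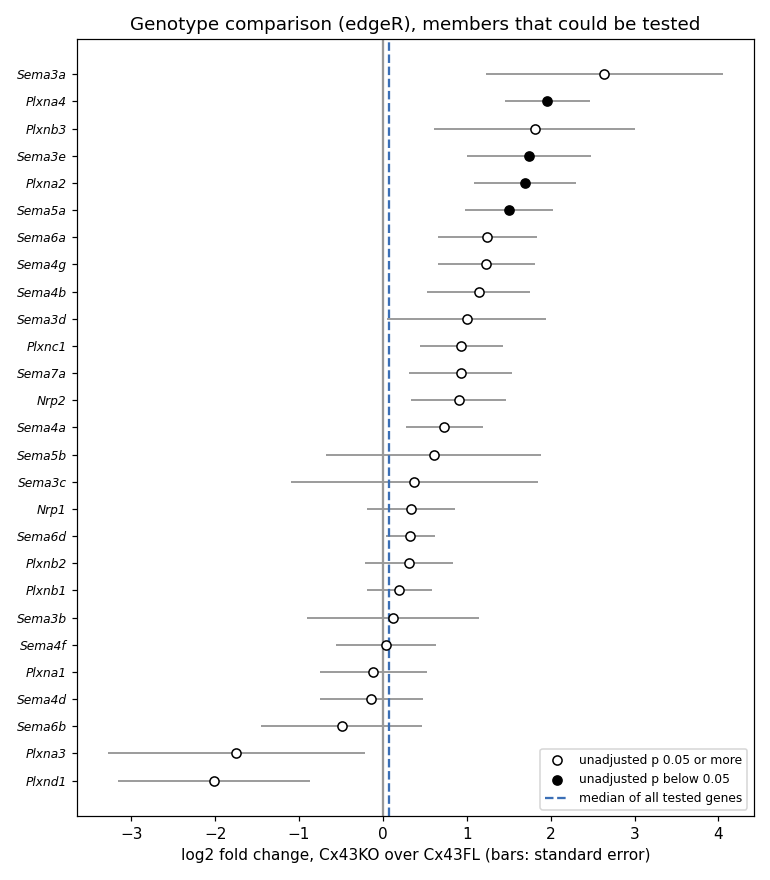
Log2 fold change, Cx43KO over Cx43FL, of the 27 tested members from edgeR (horizontal axis) with bars for the standard error, filled points marking an unadjusted p below 0.05 and the dashed line the median of all tested genes. Of the 27 points 22 lie above 0, and the 4 filled ones (Plxna4, Sema3e, Plxna2 and Sema5a) lie between 1.51 and 1.96.

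The A plexins are the receptors shared by secreted and class 6 semaphorins. Plxna4 (chromosome 6 of GRCm38, 32144268 to 32588192, minus strand, 32 exons) had the lowest p-value of the family. It had 592, 203 and 398 counts in Cx43FL, against 2771, 1645 and 2164 counts in Cx43KO, that is 39.0, 13.5 and 25.9 CPM against 172, 66.1 and 66.8 CPM. All Cx43KO libraries were above those of Cx43FL, and Cx43KO replicate 1 was the highest. The log2 fold change of Plxna4 was 1.96 (standard error, SE, 0.51, edgeR adjusted p = 0.490, and 0.00264 before adjustment). It stayed between 1.35 and 2.35 when each library was left out, the lowest being without Cx43KO replicate 1. With DESeq2 its adjusted p was 0.0300 with the prior and 0.0245 without it. Permuting the libraries exactly (2-sided, on log2 CPM with 0.5 added) gave p = 0.1, the smallest that 3 libraries against 3 allow. The transcript shares 110 bases (0.854% of its length) with Plxna4os3 on the opposite strand, which unstranded counts cannot tell apart.

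Plxna2 (chromosome 1, gene from 194618218 to 194816869, plus strand) was represented by a transcript that starts at 194619825, 4 bases from the start site of the promoter shown above. It had 19.1, 6.83 and 18.6 CPM in Cx43FL, against 89.3, 32.0 and 23.2 CPM in Cx43KO. The genotypes did not overlap, with Cx43KO replicate 3 close to the highest Cx43FL library. Its log2 fold change was 1.70 (SE 0.61, edgeR adjusted p = 0.540), and 0.89 without Cx43KO replicate 1. Plxna1, described although outside the rule for per-library values, had 10.4, 40.8 and 16.2 CPM in Cx43FL, against 35.6, 16.2 and 10.6 CPM in Cx43KO, a log2 fold change of -0.11 (SE 0.64). Its highest library was Cx43FL replicate 2, and the genotypes overlapped. Part of the Plxna1 transcript (10.7% of its length) lies opposite Gm26811. Plxna3, on chromosome X, was scarce, with 21, 13 and 74 counts in Cx43FL, against 21, 0 and 26 in Cx43KO.

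Summed per length, the 4 A plexins had 6.11, 6.30 and 6.19 CPM per kb in Cx43FL, against 25.6, 9.83 and 8.58 CPM per kb in Cx43KO. The sum was nearly equal across the Cx43FL libraries although its parts were not, and every Cx43KO library lay above. Plxna4 made up 49.6%, 16.6% and 32.5% of this sum in Cx43FL, against 52.2%, 52.2% and 60.5% in Cx43KO. Plxna1 made up 18.9%, 71.6% and 29.0% against 15.4%, 18.2% and 13.7%. The share of Plxna4 was thus higher and that of Plxna1 lower in every Cx43KO library, although Cx43FL replicate 1 was close to the Cx43KO range for both. The ratio of Plxna4 to Plxna1 per length was 2.63, 0.232 and 1.12 in Cx43FL, against 3.39, 2.86 and 4.43 in Cx43KO, without overlap (p = 0.1 by exact permutation, 2-sided, which is the lowest it can give). These shares were chosen after the values of the genes had been seen.

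**Figure D3:**
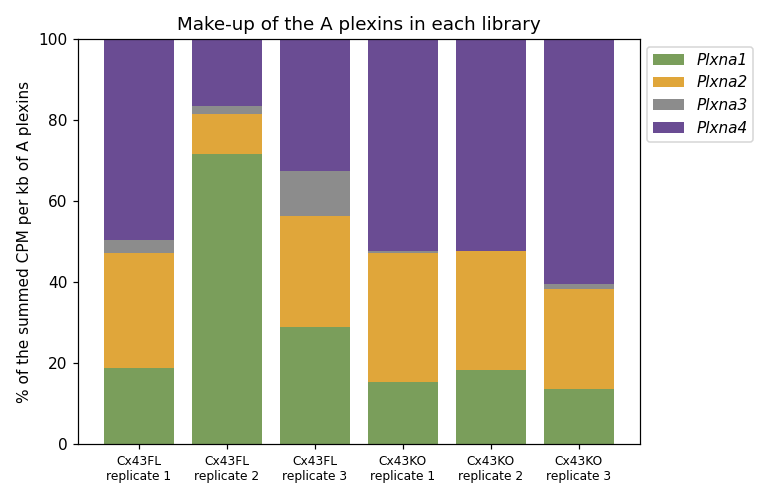
Share of Plxna1, Plxna2, Plxna3 and Plxna4 in the summed CPM per kb of the A plexins (vertical axis, percent), with 1 bar per library. Plxna4 makes up 52.2% to 60.5% in the Cx43KO libraries and 16.6% to 49.6% in the Cx43FL libraries, and Plxna1 71.6% in Cx43FL replicate 2.

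Of the B plexins, receptors of class 4 semaphorins, Plxnb1 and Plxnb2 were abundant and had small fold changes. Plxnb1 had 45.9, 114 and 72.3 CPM in Cx43FL, against 63.5, 87.6 and 115 CPM in Cx43KO, a log2 fold change of 0.20 (SE 0.39). Plxnb2 had 9.16, 21.6 and 28.3 CPM against 19.1, 24.2 and 29.9 CPM, a log2 fold change of 0.31 (SE 0.52). Both genes overlapped between genotypes, and leaving out Cx43FL replicate 1 turned both log2 fold changes slightly negative (-0.09 and -0.05). Plxnb3, a receptor of Sema5a, was scarce, at 21, 13 and 22 counts in Cx43FL, against 130, 111 and 14 in Cx43KO, and its log2 fold change of 1.81 (SE 1.20) was 0.99 without Cx43KO replicate 1. Plxnc1, the receptor of Sema7a, had 27.7, 23.6 and 19.4 CPM in Cx43FL, against 62.5, 17.9 and 54.5 CPM in Cx43KO. Cx43KO replicate 2 was the lowest of the 6 libraries for Plxnc1, and the other Cx43KO libraries were the highest. Its log2 fold change was 0.93 (SE 0.50, edgeR adjusted p = 0.609). Plxnd1, the receptor of Sema3e best known from vessels, had the most negative value of the family. Its counts were 83, 75 and 27 in Cx43FL, against 31, 19 and 11 in Cx43KO, for a log2 fold change of -2.02 (SE 1.14, edgeR adjusted p = 0.628). Cx43KO replicate 1 overlapped the lowest Cx43FL library, and without it the log2 fold change was -2.88.

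The neuropilins, which present class 3 semaphorins and also bind VEGF, were both counted in every library. Nrp1 had 27.8, 10.9 and 23.8 CPM in Cx43FL, against 38.6, 18.9 and 21.4 CPM in Cx43KO, for a log2 fold change of 0.34 (SE 0.52). It was -0.05 without Cx43KO replicate 1. Nrp2 showed 17.7, 9.75 and 13.5 CPM in Cx43FL, against 34.5, 10.6 and 31.4 CPM in Cx43KO, for a log2 fold change of 0.90 (SE 0.56). For both genes the genotypes overlapped and Cx43FL replicate 2 was the lowest library. The ratio of Nrp2 to Nrp1 per length also overlapped, at 0.340, 0.480 and 0.303 in Cx43FL, against 0.479, 0.299 and 0.785 in Cx43KO.

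Of the secreted class 3 semaphorins, 5 of 7 were tested, and all 5 had positive log2 fold changes with a median of 0.997. Sema3d, Sema3a and Sema3e lie in this order on chromosome 5, between 12383385 and 14256689, and Sema3c further along (17574281 to 17730268). Sema3e had 8.56, 3.85 and 10.6 CPM in Cx43FL, against 31.5, 5.67 and 39.98 CPM in Cx43KO. Cx43KO replicates 1 and 3 were above all Cx43FL libraries and replicate 2 was among them. Its log2 fold change was 1.74 (SE 0.73, edgeR adjusted p = 0.580, and 0.0372 before adjustment), and 1.27 without Cx43KO replicate 3. The retained-intron transcript of Sema3e starts at the same base, keeps an intron and ends within the last exon, so that the rest of that exon (3′ untranslated region) is counted on the leading transcript alone. It had 5.86, 3.58 and 9.57 CPM in Cx43FL, against 9.06, 1.69 and 10.1 CPM in Cx43KO. The genotypes overlapped for it, so that most of the difference in Sema3e lay in counts that this shorter transcript does not share. Sema3d was low but separated, with 3.95, 1.59 and 1.498 CPM in Cx43FL, against 4.97, 3.98 and 5.13 CPM in Cx43KO. Its log2 fold change of 0.997 was close to its standard error of 0.95.

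Sema3a, the classical repellent of axons, gave the largest fold change, which rested on a single library. It had 60, 2 and 82 counts in Cx43FL, against 883, 29 and 95 counts in Cx43KO. Cx43KO replicate 1 lay far above the rest, which overlapped. The log2 fold change was 2.64 (SE 1.41) with all libraries and -0.61 without Cx43KO replicate 1, and DESeq2 gave no p-value for this gene. Sema3b had 100, 24 and 79 counts against 13, 161 and 232, and Sema3c had 37, 0 and 28 counts against 56, 21 and 40. Cx43KO replicate 1 was the lowest library for Sema3b and the highest for Sema3a and Sema3c.

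Among the class 4 semaphorins, which act in immune cells as well as in the nervous system, Sema4a and Sema4g did not overlap between genotypes. Sema4a had 13.2, 17.8 and 19.9 CPM in Cx43FL, against 20.7, 30.3 and 33.4 CPM in Cx43KO, for a log2 fold change of 0.73 (SE 0.46). Cx43KO replicate 1 was just above the highest Cx43FL library. Sema4g had 15.9, 4.11 and 14.3 CPM in Cx43FL, against 30.4, 20.9 and 29.5 CPM in Cx43KO, for a log2 fold change of 1.23 (SE 0.58, edgeR adjusted p = 0.5995). Sema4b had 22.7, 4.44 and 20.6 CPM in Cx43FL, against 33.1, 22.6 and 49.7 CPM in Cx43KO, for a log2 fold change of 1.14 (SE 0.61), and Cx43KO replicate 2 lay just below Cx43FL replicate 1. Cx43FL replicate 2 was the lowest library for Sema4b and Sema4g, well below the other Cx43FL libraries. Sema4d and Sema4f had log2 fold changes of -0.14 (SE 0.62) and 0.04 (SE 0.59), well within their errors.

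Of the other membrane semaphorins, Sema5a, a bifunctional cue with thrombospondin repeats, had 32.3, 56.3 and 37.4 CPM in Cx43FL, against 216, 41.3 and 101 CPM in Cx43KO. Cx43KO replicates 1 and 3 were above all Cx43FL libraries and replicate 2 lay within their range. Its log2 fold change was 1.51 (SE 0.53, edgeR adjusted p = 0.540, and 0.0154 before adjustment), and 0.75 without Cx43KO replicate 1. Sema5b ranged from 24 to 88 counts in Cx43FL and from 2 to 319 in Cx43KO, a log2 fold change of 0.60 (SE 1.28). Sema6a had 12.6, 13.7 and 24.2 CPM against 75.4, 27.1 and 17.3 CPM, and its log2 fold change of 1.25 (SE 0.59) was 0.40 without Cx43KO replicate 1. Sema6b had a log2 fold change of -0.49 (SE 0.96). Sema7a, the ligand of Plxnc1 and of Itgb1, had 10.3, 5.04 and 6.51 CPM in Cx43FL, against 16.0, 14.8 and 10.96 CPM in Cx43KO. The genotypes did not overlap and Cx43KO replicate 3 was close to Cx43FL replicate 1. The log2 fold change of Sema7a was 0.93 (SE 0.61, edgeR adjusted p = 0.659).

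Sema6d varied least of the family in Cx43FL, with 112, 119 and 113 CPM in Cx43FL (coefficient of variation 0.0329) and 118, 129 and 187 CPM in Cx43KO. Only Cx43KO replicate 3 stood clearly above the others. Its log2 fold change was 0.33 (SE 0.29, edgeR adjusted p = 0.745). The median coefficient of variation of the members was 0.489 in Cx43FL, where that of all tested genes was 0.298, and 0.528 in Cx43KO, where it was 0.454. Summed per length, the 20 semaphorins had 55.1, 46.1 and 56.1 CPM per kb in Cx43FL, against 99.6, 64.8 and 98.0 CPM per kb in Cx43KO, without overlap. Sema6d made up 32.8%, 41.6% and 32.5% of this sum in Cx43FL, against 19.0%, 31.9% and 30.6% in Cx43KO, a share chosen after its values had been seen. The share of Sema6d was lower in every Cx43KO library, by a narrow margin in replicates 2 and 3 (p = 0.1 by exact permutation, 2-sided, which is the lowest it can give).

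**Figure D4:**
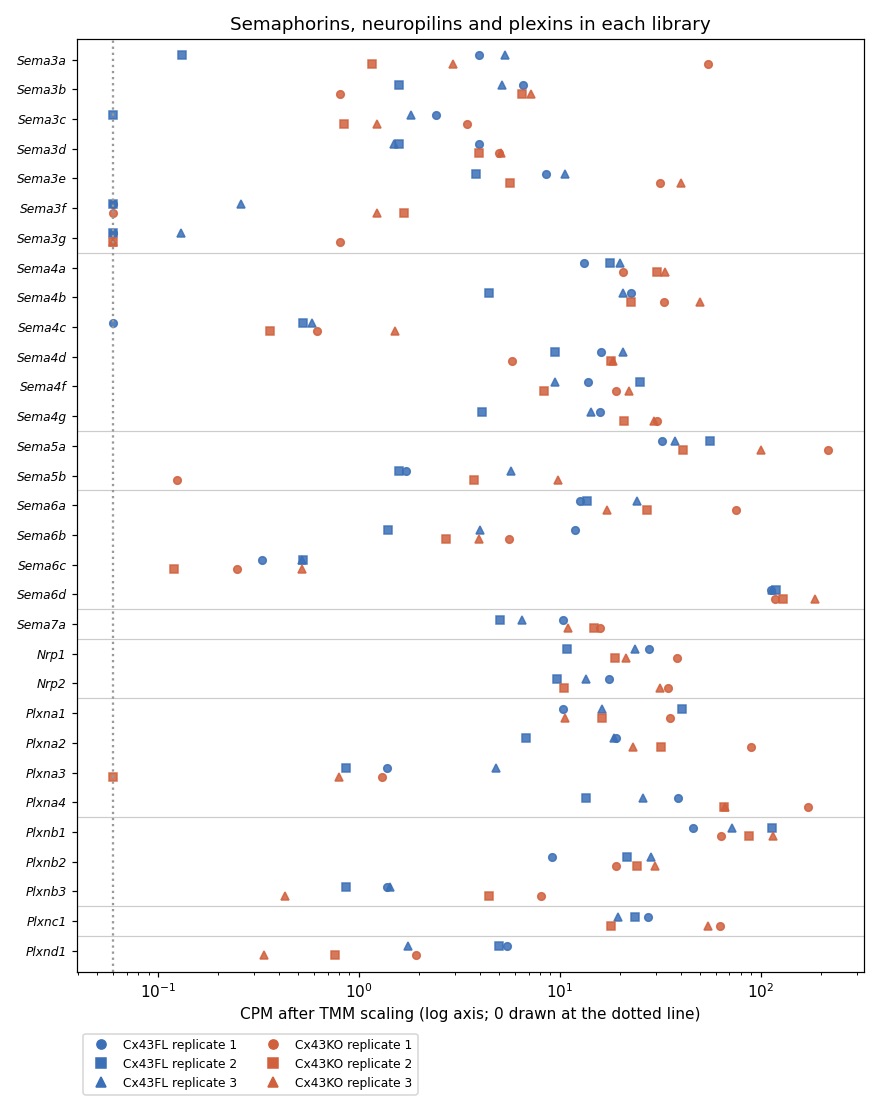
CPM after TMM scaling of the 31 genes in each library (horizontal axis, log scale, with 0 drawn at the dotted line), blue for Cx43FL, red for Cx43KO, and symbols for replicates. Cx43KO replicate 1 is the highest library for 12 of the 27 tested members and Cx43FL replicate 2 the lowest for 11.

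The same libraries recurred at the ends of the range. Cx43KO replicate 1 was the highest library for 12 of the 27 tested members (44.4%, against 30.3% of all tested genes). Cx43KO replicate 3 was the highest for 9 (33.3%, against 18.7%) and Cx43KO replicate 2 for 0 (against 12.1%). Cx43FL replicate 2 was the lowest library for 11 members (40.7%, against 21.2%), and Cx43FL replicate 1 for 7 (25.9%, against 10.9%).

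Most of these genes have several annotated transcripts with reads in common, and the leading pair of Nrp2, for example, had identical counts in every library. For 15 members, 60 further transcripts with at least 100 counts in all were set against the leading transcript of the gene. The share lay above in every Cx43KO library for 3 of 60 transcripts (background 5.26% of 32557 transcripts) and below for 3 of 60 (background 3.91%), which is near the background. One of the latter was the retained-intron transcript of Sema3e described above. It had 89, 54 and 147 counts in Cx43FL, that is 68.5%, 93.1% and 90.2% of the leading count, and 146, 42 and 326 in Cx43KO, that is 28.8%, 29.8% and 25.2%. For Sema3a the shorter coding transcript held 21.7%, 0% and 53.7% of the leading count in Cx43FL, against 89.9%, 82.8% and 86.3% in Cx43KO. It had few reads in Cx43FL (13, 0 and 44 counts) and in Cx43KO replicates 2 and 3 (24 and 82), against 794 in Cx43KO replicate 1. Both transcripts were picked after their values were seen.

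Genes that act with the family were read from a list of 37 co-receptors, other receptors, intracellular effectors and the neuropilin ligand Vegfa, of which 33 were tested. edgeR called 0 of them, and at an unadjusted p below 0.05, 7 of the 33 were higher in Cx43KO and 0 lower (background 5.66% and 2.67%). Met was among these 7, although it passed the filter on low counts only through Cx43KO. Without Cx43KO replicate 1, 4 of 35 were higher and 1 (Flt1, which binds VEGF) lower. Flt1 was scarce, at 82, 26 and 2 counts in Cx43FL, against 0 and 3 in Cx43KO replicates 2 and 3. It thus passed the filter there only through Cx43FL, and its direction does not count as a result. Without Cx43FL replicate 1, 3 of 35 were higher, and without Cx43FL replicate 2, 4 of 35. Without Cx43FL replicate 3, 5 of 34 were higher. Without Cx43KO replicate 2, 7 of 34 were higher and 1 (Gipc1) lower, and without Cx43KO replicate 3, 8 of 34 and 1 (Vegfa). Met was again among those higher without Cx43FL replicate 3, Cx43KO replicate 2 or Cx43KO replicate 3. The backgrounds of genes higher are those given above for these libraries, and none is given for genes lower. DESeq2 with its prior called 1, L1cam, which the study also listed as changed in these libraries. The 33 had a median log2 fold change of 0.33, with 24 positive. L1cam, Chl1 and Nrcam, adhesion molecules of the L1 family that join neuropilins in receptor complexes, had log2 fold changes of 3.61, 1.06 and 1.17 (SEs 0.73, 0.45 and 0.37). L1cam had 4.48, 1.92 and 3.58 CPM in Cx43FL, against 55.0, 9.36 and 57.7 CPM in Cx43KO, and Nrcam 86.5, 95.8 and 98.7 against 199, 114 and 320 CPM. L1cam and Nrcam did not overlap between genotypes, and Chl1 did. Without Cx43KO replicate 1 the log2 fold changes of L1cam, Chl1 and Nrcam were 3.33, 0.43 and 1.21.

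Other receptors on this list were Itgb1, which binds Sema7a, with 21.1, 28.4 and 23.1 CPM in Cx43FL, against 79.0, 41.0 and 47.9 CPM in Cx43KO, and Cd72, which binds Sema4d, with 19.6, 6.63 and 14.8 against 58.0, 12.6 and 39.3 CPM. Met, a partner of B plexins, was listed at 0, 0 and 0.326 CPM in Cx43FL, against 5.46, 2.29 and 1.30 CPM in Cx43KO. Since Met passed the filter only through the Cx43KO libraries, neither its direction nor its separation counts as a result. Mical2, of the family of oxidoreductases that act on actin downstream of plexins, had 101, 124 and 135 CPM in Cx43FL, against 369, 166 and 190 CPM in Cx43KO. All Cx43KO libraries lay above those of Cx43FL for Itgb1, Met and Mical2, and the genotypes overlapped for Cd72. Without Cx43KO replicate 1 the log2 fold change of Mical2 was 0.56 in place of 1.01, and that of Cd72 0.92 in place of 1.42. Itgb1 and Met then had 0.87 and 3.97, in place of 1.21 and 4.71. Libraries also lay above without overlap for Arhgef12, the RhoA exchange factor bound by B plexins (log2 fold change 0.36, SE 0.27), and for Arhgap35 (0.49, SE 0.28). For Gipc1, an adaptor that binds the tail of Nrp1, they lay below (-0.67, SE 0.34). The GTPases Rac1 and Rhoa had log2 fold changes of 0.02 and -0.24 (SEs 0.30 and 0.32), and Mst1r, Timd2, Rnd1 and Fes were too scarce to be tested.

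Markers of other cell types also differed between these libraries. The counts of markers above or below stand beside 8.08% of all tested genes above and 7.45% below. The summed CPM of 12 neuron markers were 2141, 2782 and 2878 in Cx43FL, against 7829, 3045 and 4503 in Cx43KO, and for 4 of 12 markers every Cx43KO library lay above. Choroid plexus markers (6 of 6 above) summed to 9921, 467 and 15319 CPM in Cx43FL, against 33035, 26273 and 22166 CPM in Cx43KO. Microglia markers (6 of 11 tested above) summed to 55.2, 59.6 and 33.0 CPM against 164, 107 and 254 CPM. Astrocyte markers (0 of 12 above, 2 below) summed to 28144, 26989 and 31439 CPM in Cx43FL, against 14171, 27028 and 39444 CPM in Cx43KO. The lowest astrocyte sum and the highest neuron sum were both in Cx43KO replicate 1, the highest library for Plxna4, Plxna2, Sema5a, Sema6a and Sema3a. The lowest choroid plexus sum was in Cx43FL replicate 2, the lowest library for Plxna4, Plxna2, Sema3e, Sema4b, Sema4g and both neuropilins.

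Oligodendrocyte markers (1 of 12 above) summed to 626, 1052 and 677 CPM in Cx43FL, against 2820, 1037 and 631 CPM in Cx43KO, and precursor markers (1 of 6 above) to 32.2 to 56.1 against 34.8 to 74.4 CPM. Endothelial markers (1 of 6 tested above, 1 below) summed to 8.01 to 12.1 against 10.5 to 23.7 CPM, and mural markers (1 of 5 tested above) to 30.2 to 39.5 against 35.4 to 91.6 CPM, with Kcnj8 at 0 in every library. The part of these cell types in the values of the semaphorins, plexins and neuropilins was not tested. The libraries hold mRNAs recovered by TRAP, in which fewer cells of a type and less RNA per cell cannot be told apart. How mRNAs of other cell types entered the recovery was not tested, and the marker sums do not measure numbers of cells.

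**Figure D5:**
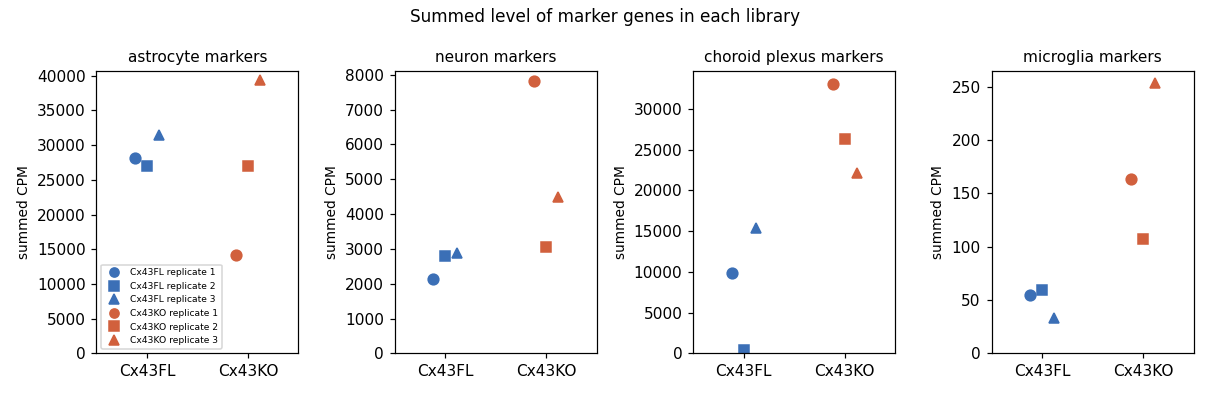
Summed CPM of astrocyte, neuron, choroid plexus and microglia markers (vertical axes, linear from 0) in each library, blue for Cx43FL and red for Cx43KO. Cx43KO replicate 1 has the lowest astrocyte sum (14171 CPM) and the highest neuron sum (7829 CPM), and Cx43FL replicate 2 the lowest choroid plexus sum (467 CPM).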

How the data were processed

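For each Ensembl transcript, the authors deposited unnormalized read counts, in each of 3 Cx43FL and 3 Cx43KO libraries of polysomal mRNAs. Before counting, per the methods and the submitters' processing notes, reads (bcl2fastq 1.8.4) were quality filtered, mapped with STAR on mm10, multi-mapping reads were removed, and reads were counted with HTSeq 0.5.3. The RNA was amplified (NuGEN Ovation), so that counts carry no strand and amplified reads are not independent molecules. Of the transcripts, 73157 were matched to GRCm38 gene names and 2309 were not (1.60% to 1.78% of the counts). The transcript with the most counts over all libraries stood for its gene, giving 14787303 to 34733473 counts per library.

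Genotype was taken from the labels. edgeR 4.0.16 in R 4.3.3 was run on all genes (TMM, filterByExpr, quasi-likelihood F test, Benjamini-Hochberg adjustment, genotype only). SE is the absolute log2 fold change over the square root of F. Alternatives were DESeq2 1.42.0 with and without its prior, other scalings and filters, summed transcripts, the replicate number as a block, and each library left out. When each library was left out, a count of genes without overlap was compared with its own background. The tests were tested on simulated data. Every member was named, with values per library for members with an unadjusted p below 0.05 in edgeR, without overlap, called by DESeq2, or among the 3 most abundant semaphorins or plexins, and for both neuropilins. Partners were named at an unadjusted p below 0.05 or without overlap, and other genes given with values were chosen after these were seen. Members and lists were chosen with earlier results of these data known. Promoters are from RefSeq (GRCm38.p6).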

Additional observations from a re-analysis of the deposited data

How the results depend on the processing

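edgeR's quasi-likelihood test called 0 members and 0 partners under every scaling, filter, summing, block and left-out library tried, and 4 members (4 higher, 0 lower) had an unadjusted p below 0.05. DESeq2, with and without its prior, called 1 member (Plxna4) and 1 partner (L1cam). The median log2 fold change of 0.73 was 0.63 with the prior over the same 27 members, 0.29 over all 31, which adds the 4 below edgeR's filter, and 0.597 to 0.998 when each library was left out. The number of members with an unadjusted p below 0.05 ranged from 1 of 28 (without Cx43KO replicate 1, background 5.17% of all tested genes higher) to 7 of 27 (without Cx43KO replicate 2, background 6.57%), and was 2 of 29 without Cx43FL replicate 1 or 2 (backgrounds 3.38% and 3.7%). It was 5 of 29 without Cx43FL replicate 3 and 5 of 27 without Cx43KO replicate 3 (backgrounds 4.76% and 8.72%). The number without overlap ranged from 7 to 11 when each library was left out, against 6 with all libraries. It was 10 without Cx43KO replicate 1 and 11 without Cx43KO replicate 2, with backgrounds given in the Results. Members lying above were 7, 8 and 7 of 29 without Cx43FL replicates 1, 2 and 3 (backgrounds 10.5%, 11.4% and 13.2%). Without Cx43KO replicate 3 they were 8 of 27 (background 16.0%). Members lying below were 0, 1, 1 and 0 in these settings, against backgrounds of 10.3% to 15.8%. Fewer libraries separate more genes by construction. Otherwise the cause was not tested.

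Of 27 members 16 kept their direction under all alternatives that gave a value, up to 14 each, and 11 turned under at least 1, all with an unadjusted p above 0.05. The log2 fold change of Sema4f was -0.0253 with upper-quartile factors and that of Plxna1 0.30 with summed transcripts. When each library was left out the log2 fold changes ranged from -0.24 to 0.48 for Sema4f, -0.97 to 0.58 for Sema6b, -0.0468 to 0.67 for Plxnb2, -0.0860 to 0.57 for Plxnb1, -0.45 to 0.998 for Sema3c, -0.75 to 0.63 for Plxna1, -0.29 to 0.62 for Sema3b, -0.40 to 0.23 for Sema4d, -0.0479 to 0.59 for Nrp1, -0.61 to 3.25 for Sema3a and -0.63 to 1.47 for Sema5b.

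Libraries with the same replicate number did not deviate together (correlations of 0.0114, -0.0040 and -0.0547 across genes). With so few libraries this cannot show whether they shared a litter or a preparation. The paper calls the Cx43FL mice control littermates, without stating which mice came from the same litter. With the replicate block 6 of 27 members were higher at an unadjusted p below 0.05 (background 4.33%), 0 were called, and the median log2 fold change was 0.77. Sema5b and Sema3b turned to -0.20 and -0.0124 with this block.

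The low counts of Sema3f, Sema3g, Sema4c and Sema6c and standard errors of about 1 or more for Sema3a, Sema3b, Sema3c, Sema5b, Plxna3, Plxnb3 and Plxnd1 limit what these libraries can show for those genes.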
